A study of Mus musculus with 2 samples.

Results

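Cilia are built and run by proteins of several families, and the genes of 6 of them were examined in newborn mouse hindbrain. Protein-coding genes whose symbol is Ift, Bbs, Tctn, Dnah, Cfap or Rsph followed directly by a number were taken from the GENCODE M21 mouse annotation. That gave 76 of 21938 protein-coding genes. The transport class holds 24 genes (14 Ift, 8 Bbs and 2 Tctn) and the motile axoneme class holds 52 (15 Dnah, 29 Cfap and 8 Rsph). The rule uses symbols alone and no measured value, and the families were picked with earlier results of these data known.

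In DNase-seq, nuclei are treated with DNase I, which cuts mainly where DNA is free of nucleosomes, and sequenced ends of the fragments mark open chromatin. Hindbrain, which holds the cerebellum, pons and medulla, came from healthy B6NCrl mice on postnatal day 0, with males and females pooled. All samples belong to 1 group of 2 biological replicates, so the classes of genes were set beside all protein-coding genes of the same libraries. The labels give each replicate a tissue sample of its own and 1 donor entry for both. The number of animals is not stated in the sources used here, and read depth is unknown.

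A cilium grows because intraflagellar transport carries its building blocks along the microtubules of the axoneme. The Ift proteins form the transport trains, the Bbs proteins form or assemble the BBSome, which moves membrane proteins, and the Tctn proteins sit in the transition zone that gates the base. Almost every neural progenitor and neuron carries an immotile primary cilium, which needs this machinery to read Sonic hedgehog. Motile cilia, found in the brain on ependymal and choroid plexus cells, add dynein arms with Dnah heavy chains, radial spokes with Rsph proteins, and many Cfap proteins of the microtubule doublets, the central pair and the arms. RFX transcription factors bind a motif named the X-box in promoters of ciliary genes of both kinds, and FOXJ1, a forkhead factor, drives genes of motile cilia.

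RFX X-boxes were common in the open promoters described below, and 10 stretches that hold it are shown here to make its form visible. They lie inside the 150 bp at the centre of the promoter peak and outside annotated exons, and were read from the GRCm38.p6 (mm10) RefSeq genome, 5′ to 3′ on the strand of the gene. Capitals mark 1 X-box in each. The first 3 are genes of transport trains, and the others are motile axoneme genes.
Ift57 (chr16:49699096-49699232, forward strand): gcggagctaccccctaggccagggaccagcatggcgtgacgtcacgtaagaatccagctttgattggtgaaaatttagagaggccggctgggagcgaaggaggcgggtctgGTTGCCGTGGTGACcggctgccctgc
Ift80 (chr3:69004571-69004665, reverse strand): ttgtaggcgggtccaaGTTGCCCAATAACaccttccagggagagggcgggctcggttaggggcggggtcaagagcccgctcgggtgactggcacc
Ift22 (chr5:136908036-136908149, forward strand): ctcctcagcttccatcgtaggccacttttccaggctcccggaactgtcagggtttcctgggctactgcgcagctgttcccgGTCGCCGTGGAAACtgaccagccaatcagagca
Cfap20 (chr8:95434870-95435005, reverse strand): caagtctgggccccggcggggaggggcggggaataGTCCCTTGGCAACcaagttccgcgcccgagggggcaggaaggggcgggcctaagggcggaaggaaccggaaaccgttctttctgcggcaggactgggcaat
Dnah6 (chr6:73221686-73221835, reverse strand): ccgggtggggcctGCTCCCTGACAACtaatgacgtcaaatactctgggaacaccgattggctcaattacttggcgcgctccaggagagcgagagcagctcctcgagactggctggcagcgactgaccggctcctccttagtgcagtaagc
Cfap54 (chr10:93081619-93081745, reverse strand): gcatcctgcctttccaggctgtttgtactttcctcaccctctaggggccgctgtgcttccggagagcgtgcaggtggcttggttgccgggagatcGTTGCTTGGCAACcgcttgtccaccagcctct
Cfap44 (chr16:44394686-44394795, forward strand): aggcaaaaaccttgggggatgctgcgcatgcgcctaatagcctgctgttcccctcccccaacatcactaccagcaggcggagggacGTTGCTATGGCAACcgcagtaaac
Rsph4a (chr10:33904916-33905065, forward strand): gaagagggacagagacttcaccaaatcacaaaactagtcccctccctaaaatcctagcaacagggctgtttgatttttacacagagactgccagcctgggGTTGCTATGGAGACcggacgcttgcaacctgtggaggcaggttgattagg
Dnah7a (chr1:53706785-53706895, reverse strand): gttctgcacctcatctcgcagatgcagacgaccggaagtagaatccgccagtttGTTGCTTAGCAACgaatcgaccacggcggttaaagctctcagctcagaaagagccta
Dnah7c (chr1:46425406-46425555, forward strand): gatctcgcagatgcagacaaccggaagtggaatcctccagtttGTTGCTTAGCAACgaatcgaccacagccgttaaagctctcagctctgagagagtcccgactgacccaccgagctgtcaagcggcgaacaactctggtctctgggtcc

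The arms of an X-box tend toward an inverted repeat, and how closely they follow it varied. Of the 6 bases of each outer arm, all 6 were the inverted copy of the other arm in Dnah7a and Dnah7c, 5 in Cfap44 and Cfap54, 4 in Ift57 and Ift22, and 3 in Ift80, Cfap20, Dnah6 and Rsph4a. The 10 are a part of such stretches, and those not shown ran from 2 in Cfap77 and Cfap157 to 5 in Cfap58 and Cfap70. These counts were not set beside a background. In Ift57, Ift80, Cfap20, Cfap54 and Cfap44 the match also holds the RFX half-site, GTTGCC on either strand. The same X-box stands in Dnah7a and Dnah7c, near-copies whose promoter sequences were 85% identical over 300 bp. The match lay upstream of the 5′ end of the gene in all 10, a place that the choice of stretches outside exons favours. Among all members with an X-box in the 150 bp, 6 of 11 transport and 16 of 29 motile axoneme genes had a match upstream. In the stretches shown, the centre of the match was 17 bp upstream in Cfap44, 19 bp in Ift57, 95 bp in Cfap20 and 165 bp in Dnah6.

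A gene was counted as open when a peak of each replicate lay within 500 bp of any of its annotated start sites. All 24 transport genes were open, and so were 46 of 52 motile axoneme genes (88.5%, exact 95% interval 76.6 to 95.7%), where 66.3% of all protein-coding genes were. In replicate 1 alone, 24 transport genes and 50 motile axoneme genes had a promoter peak, against 70.8% of all genes. In replicate 2 alone it was 24 and 46, against 66.8%. Intervals cover counting error only, and genes are not independent samples. In every open member the best pair of peaks overlapped between the replicates.

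The families differed within the motile class. All 8 Rsph genes and 28 of 29 Cfap genes were open, against 10 of 15 Dnah genes. The Dnah share, 66.7%, was close to the 66.3% of all protein-coding genes. All 14 Ift, 8 Bbs and 2 Tctn genes were open. The 5 Dnah genes and 1 Cfap gene left are described further on.

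CpG content at the 5′ end separates promoters that are open in most tissues from those that are not, and the classes differed in it. CpG-rich means at or above the median of all protein-coding genes, 4.10 CpG per 100 bp within 500 bp of the 5′ end. By that cut 83.3% of transport promoters and 40.4% of motile axoneme promoters were CpG-rich, against 50.3% of all. In the motile families, 3 of 15 Dnah, 15 of 29 Cfap and 3 of 8 Rsph promoters were CpG-rich. How far that bears on the family counts was not tested. Among CpG-rich promoters, 20 of 20 transport and 21 of 21 motile axoneme genes were open, and so were 95.9% of all CpG-rich genes. This share of the members is close to the background.

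Among CpG-poor promoters the count of open members was above the background share. All 4 CpG-poor transport genes and 25 of 31 CpG-poor motile axoneme genes (80.6%, exact 95% interval 62.5 to 92.5%) were open, against 36.3% of all CpG-poor genes. The 4 transport genes were Bbs1, Bbs9, Ift22 and Ift43. These strata are not alike in CpG content: the median was 3.75 CpG per 100 bp in the transport genes, just below the limit of 4.10, and 2.30 in the motile axoneme genes, against 1.199 in all CpG-poor genes. How far that bears on the counts was not tested. In replicate 1 alone 29 of the 31 motile axoneme genes had a peak, and in replicate 2 alone 25 of 31. In bulk tissue, fewer cells with an open site and weaker opening per cell cannot be told apart. No test of this difference was run, since the members share families and neighbours.

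**Figure D1:**
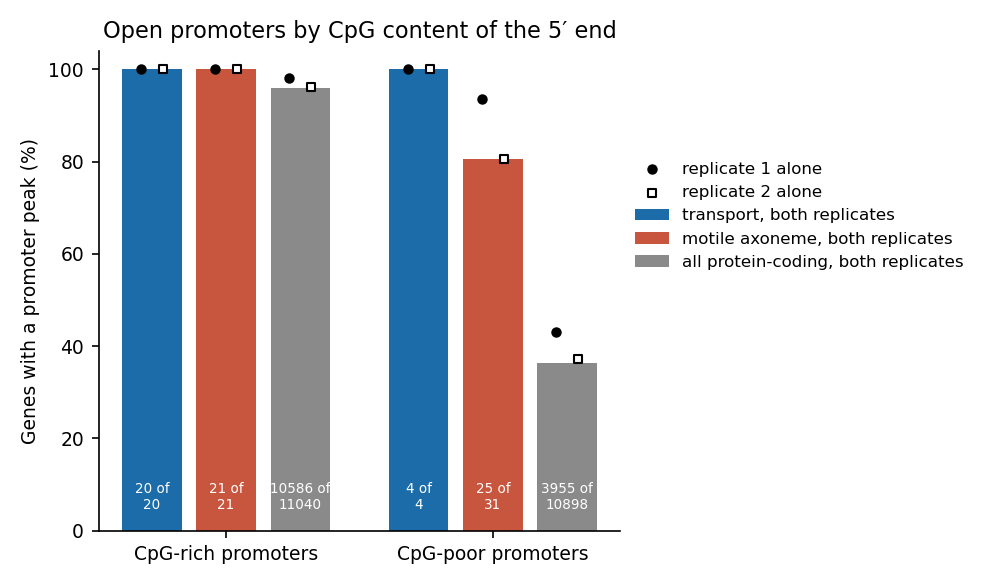
Share of genes with a promoter peak (%, bars: both replicates, circles and squares: replicate 1 or 2 alone), for transport genes, motile axoneme genes and all protein-coding genes, split by CpG content of the 5′ end. Bars of CpG-rich promoters are all near 100%, and among CpG-poor ones 25 of 31 motile axoneme genes stand beside 36.3% of all genes.

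Peaks carry the authors' own score, a whole number from 1 to 150 in replicate 1 and from 1 to 147 in replicate 2, whose meaning is not stated. It was used only to rank peaks within a list, and the best promoter peak of a gene was given its percentile among all peaks of that replicate. Transport promoters ranked high as a class. Over the mean of both replicates their median percentile was 98.5 (range 95.01 to 99.74), that of the 46 open motile axoneme genes was 93.1 (range 48.85 to 99.91), and that of all open genes was 96.3. All 24 transport genes and 30 of 46 open motile axoneme genes reached the 90th percentile, against 75.1% of all open genes. No transport gene and 7 motile axoneme genes fell below the 75th, against 11.9% of all.

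The classes overlapped: 17 of the 46 open motile axoneme promoters ranked at or above the lowest transport promoter. Within CpG-rich promoters the median percentiles were 98.8 for transport, 96.5 for motile axoneme and 97.1 for all genes. Within CpG-poor promoters they were 96.67, 91.25 and 89.96 in the same order. The motile class held more CpG-poor promoters than the transport class, and among those its median was close to that of all genes. The broader hotspots around the promoters were measured by the widest one in each gene's windows. Their median width was 1150 bp in replicate 1 and 1182 bp in replicate 2 for transport genes, and 760 bp and 758 bp for motile axoneme genes. Widths were not computed for all open genes or within the CpG strata, so these values have no background.

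**Figure D2:**
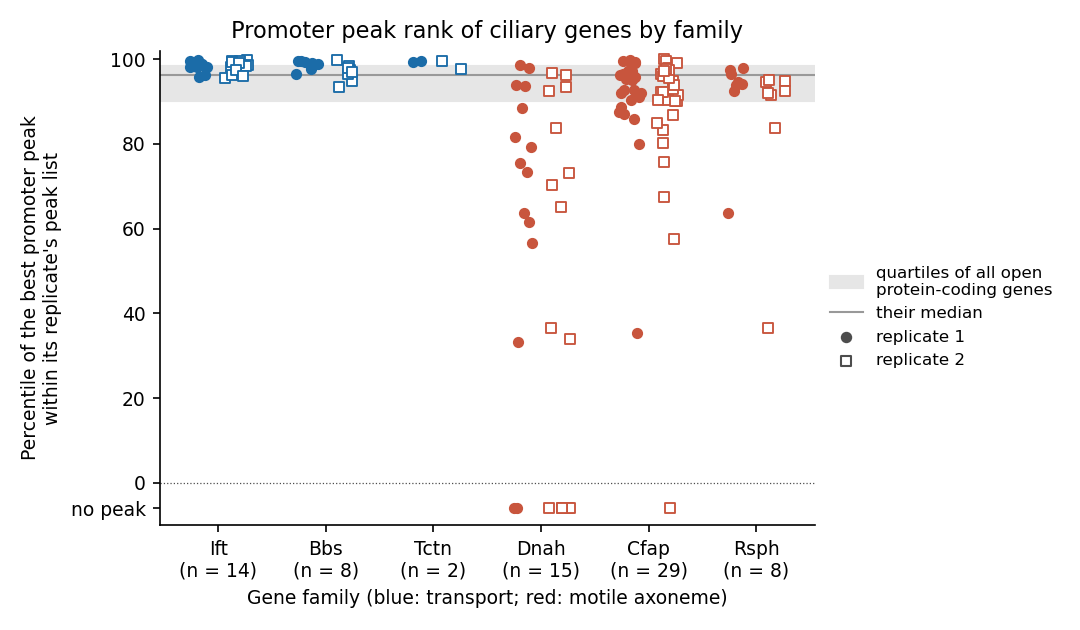
Percentile of the best promoter peak within its replicate's peak list (y axis) for every gene of the 6 families, filled circles for replicate 1 and open squares for replicate 2. The grey band spans the quartiles of all open protein-coding genes and the line is their median of 96.3. Points at "no peak" had none in that replicate. All Ift, Bbs and Tctn genes lie near the top, and Dnah genes spread the widest.

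Among genes of the transport trains, Ift27, a small GTPase of the IFT-B complex that links trains to the BBSome, had the highest rank, with scores of 145 in replicate 1 and 136 in replicate 2 (mean percentile 99.7). Ift20, an IFT-B protein also found at the Golgi, scored 139 and 136. Ift57, another IFT-B protein, scored 140 and 133. These 3 genes stood in the top 1% of peaks in their mean over both replicates, and so did Ift140, Ift122, Ift80 and Ift46. Ift140, at a mean percentile of 99.4, ranked above Ift20 and Ift57. Of the IFT-A complex, which serves transport back to the base, Ift140 scored 140 and 137, Ift122 scored 143 and 129, and Ift43 scored 121 and 111. Ift43 was the lowest of the 14 Ift genes, at a mean percentile of 95.8.

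Among the Bbs genes, Bbs2, a core subunit of the BBSome, scored 143 and 137 (mean percentile 99.6). Bbs10 and Bbs12, chaperonin-like proteins that help assemble it, scored 141 and 122, and 142 and 127. Bbs1, a subunit that binds the membrane GTPase Arl6, had the lowest rank of all transport genes, with 125 and 99. The transition zone genes scored 143 and 135 (Tctn3) and 142 and 123 (Tctn1). Scores over all 24 transport genes ran from 121 to 145 in replicate 1 and from 99 to 137 in replicate 2. Bbs9, a BBSome gene with a CpG-poor promoter and the longest territory of the class, scored 135 and 119. Scores of the replicates are not compared, since the lists differ in length and scale. By percentile within its list, 16 of 24 transport genes and 36 of 46 open motile axoneme genes stood higher in replicate 1, and the others in replicate 2.

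The highest motile axoneme promoters belonged to Cfap genes. Cfap20, an inner junction protein of the doublet, scored 146 and 140 and had the highest mean percentile of all members (99.9). Cfap298, required to assemble dynein arms, scored 141 and 136. Cfap36, a binder of the ciliary GTPase Arl3, scored 142 and 131. Ranks this high were also those of the best transport genes. Cfap97 scored 142 and 123 and Cfap99 scored 143 and 120. Cfap300, a dynein arm assembly factor, scored 131 and 124. The promoter windows of Cfap97 and Cfap99 also hold start sites of the coding genes Snx25 and Zfyve28, so their peaks cannot be given to either gene alone.

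Shared windows were not rare. A start site of another protein-coding gene lay in the windows of 7 transport genes (Bbs12, Ift122, Ift140, Ift20, Ift46, Ift80 and Tctn3) and of 6 motile axoneme genes (Cfap43, Cfap57, Cfap61, Cfap97, Cfap99 and Dnah8). With genes of any kind counted, 9 transport genes (37.5%) and 15 motile axoneme genes (28.8%) shared a window, against 22.6% of all protein-coding genes. Among the rest, 15 of 15 transport genes and 32 of 37 motile axoneme genes were open, against 59.3% of all such genes.

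Dynein heavy chains covered the widest range of ranks. Dnah6, an inner arm heavy chain with a CpG-poor promoter, scored 138 in replicate 1 and 114 in replicate 2 (mean percentile 97.4). Dnah9, an outer arm heavy chain with a CpG-rich promoter, scored 134 and 118. Both ranked above the median of all open promoters. Dnah5, the other main heavy chain of outer arms, had the lowest rank of all open members, with 55 and 31 (mean percentile 48.9). Its hotspot reached the cap of 100 on the −log10 q scale in replicate 1 and had 3.86 in replicate 2. Dnah9 thus ranked high in both replicates and Dnah5, its partner in the arm, low in both.

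The remaining Dnah genes were intermediate or low. Of the inner arms, Dnah10 scored 69 and 57, and Dnah1 scored 75 and 49. The best Dnah1 peaks lay at an internal start site, 54305 bp from its 5′ end in replicate 1 and 54285 bp in replicate 2. Its 5′ end also had a peak in each replicate, and its windows hold start sites of Gm35823 and Gm49217. Dnah11, an outer arm gene, scored 93 and 54. Dnah7a, Dnah7b and Dnah7c, 3 copies on chromosome 1, scored 109 and 98, 110 and 94, and 79 and 72. Their promoters were 75 to 85% identical over 300 bp in the pairs of the 3, so reads could in part be hard to place, and how the authors treated such reads is not known from the labels. Dnah14 was open only at an internal start site, with 66 and 32, and its 5′ end had no peak pair.

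The radial spoke genes were all open. Rsph1, a spoke head protein, scored 134 and 106. Rsph14 scored 132 and 105, with a CpG-poor promoter. Rsph9 and Rsph4a, both of the spoke head, scored 125 and 94, and 111 and 92. Rsph3a and Rsph3b, near-copies with 84% promoter identity, scored 114 and 108, and 110 and 91. Rsph6a scored 105 and 72. Rsph10b, with 55 and 32, was the 1 low member of the family, and its hotspot stood at the cap of 100 in replicate 1 and at 4.10 in replicate 2.

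Of the other Cfap genes, Cfap53, needed for left-right asymmetry, scored 87 and 43, the lowest open Cfap gene. Cfap126, also named Flattop, scored 76 and 51. These were the 2 Cfap genes below the 75th percentile. Cfap54 and Cfap46, of the central pair as known in Chlamydomonas, scored 128 and 101, and 116 and 86. Cfap44, which tethers an inner arm in Tetrahymena, scored 120 and 106. Cfap45 and Cfap52, proteins inside the doublet microtubules, scored 120 and 91, and 106 and 96. The median percentile of the 28 open Cfap genes was 93.5, that of the 8 Rsph genes 93.7, and that of the 10 open Dnah genes 81.1.

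In 6 motile axoneme genes no peak pair was found. Dnah3 and Dnah12, inner arm heavy chains, had no promoter peak in either replicate. Dnah2, an inner arm heavy chain, had 2 in replicate 1, the better with a score of 49, and none in replicate 2. Dnah8 and Dnah17, outer arm heavy chains used in sperm tails, scored 53 and 36 in replicate 1 and had none in replicate 2. Cfap73 scored 37 in replicate 1 and had none in replicate 2. These 4 scores lie around the median score of replicate 1, which was 45, and all 6 promoters were CpG-poor. A missing peak means that the signal stayed under the authors' calling threshold, not that the promoter was closed.

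Dnah2 had open sites nearby that were found in both replicates. Inside its body, at chr11:69546856-69547005 (mm10), lay the highest-ranked distal region of all members, 2.18 kb from the nearest start site, with scores of 129 in replicate 1 and 109 in replicate 2. A second region next to it at chr11:69546536-69546685 scored 115 and 107. Their mean percentiles were 96.2 and 94.9, slightly below the median of all open promoters. With windows of 1000 bp in place of 500 bp, Dnah2 and Dnah8 counted as open, which made 48 of 52.

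By the rule for open genes, peaks lay within 500 bp of a start site, in the members as in all genes. The centre of the best peak pair lay a median of 41.5 bp from the 5′ end in transport genes and 53.5 bp in open motile axoneme genes, against 82 bp in all open genes. It was within 100 bp in 20 of 24 transport genes and 29 of 46 motile axoneme genes, against 55.3% of all. Beyond 500 bp it was found in 1 transport gene, Ift46, and in 5 motile axoneme genes, Cfap43, Cfap97, Dnah1, Dnah7b and Dnah14.

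The X-box and its half-site were then counted in the 150 bp at the centre of the best peak pair, on both strands. The X-box was found in 11 of 24 transport promoters (45.8%) and 29 of 46 open motile axoneme promoters (63.0%), against 18.4% of all open promoters. The half-site GTTGCC was found in 11 transport promoters (45.8%) and 15 motile axoneme promoters (32.6%), against 8.08% of all. Some matches count for both, since a half-site can form part of an X-box. At least 1 of the 2 motifs stood in 15 transport and 34 motile axoneme promoters, against 22.6% of all. A match is a stretch of letters, and binding was not measured here.

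The counts of the X-box were above the background share in both CpG strata. Among CpG-rich promoters it was found in 8 of 20 transport and 13 of 21 motile axoneme genes, against 17.1% of all CpG-rich open genes. Among CpG-poor promoters it was found in 3 of 4 and 16 of 25, against 22.1%. By family, it stood in 5 of 14 Ift, 4 of 8 Bbs and both Tctn promoters, and in 6 of 10 open Dnah, 16 of 28 Cfap and 7 of 8 Rsph promoters.

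In the transport class, the X-box promoters were those of Ift22, Ift43, Ift57, Ift80, Ift81, Bbs1, Bbs2, Bbs4, Bbs12, Tctn1 and Tctn3. In the motile class they included all 3 Dnah7 copies, Dnah6, Dnah9 and Dnah11. All Rsph promoters except that of Rsph6a had it. The 16 Cfap promoters were those of Cfap20, Cfap44, Cfap45, Cfap46, Cfap52, Cfap54, Cfap57, Cfap58, Cfap61, Cfap70, Cfap77, Cfap157, Cfap161, Cfap221, Cfap298 and Cfap300. Without Dnah7b, Dnah7c and Rsph3b, the motile count was 26.

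The X-box promoters not yet given by score covered much of the range of their class. In the transport class, Ift22 scored 135 in replicate 1 and 129 in replicate 2, Ift80 scored 141 and 131, Ift81 scored 137 and 121, and Bbs4 scored 133 and 106. In the motile class, Cfap61 scored 132 and 113, Cfap57 scored 130 and 116, Cfap58 scored 125 and 113, and Cfap161 scored 117 and 86. Lower down, Cfap221 scored 103 and 66, Cfap70 scored 98 and 93, Cfap157 scored 94 and 60, and Cfap77 scored 91 and 87. By percentile in its own list, Cfap77 stood higher in replicate 2 (90.5) than in replicate 1 (87.6), and so did Cfap70 (92.2 and 90.3). Promoters with the X-box and those without it overlapped in the range of their ranks in both classes. The median percentiles were 98.5 with it and 98.4 without it for transport genes. For motile axoneme genes the median was higher with it, 93.7 against 88.2, and this difference was not tested.

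**Figure D3:**
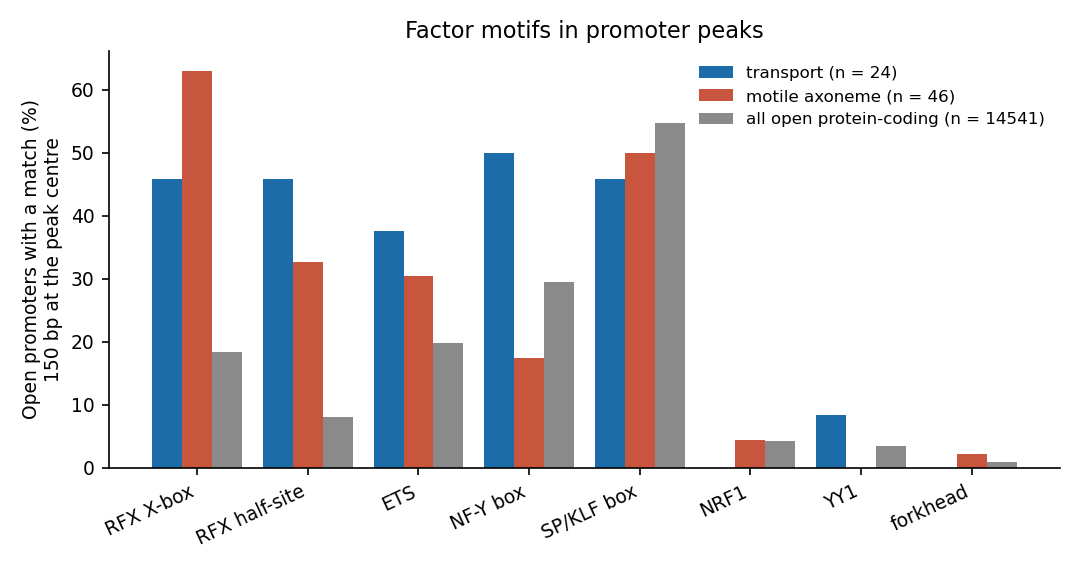
Share of open promoters (%) with a match of 8 motifs in the 150 bp at the peak centre, for 24 transport genes, 46 motile axoneme genes and 14541 open protein-coding genes. The bars of both classes stand above all genes for the RFX X-box (45.8% and 63.0%, against 18.4%) and half-site, and the NF-Y box is most frequent in transport genes (50%).

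Other motifs were counted the same way, on both strands. The NF-Y motif CCAAT was found in 12 of 24 transport promoters (50%) and 8 of 46 motile axoneme promoters (17.4%), against 29.5% of all open promoters. The classes lay on either side of the background. The ETS motif CCGGAA was found in 37.5% of transport and 30.4% of motile axoneme promoters, against 19.9% of all. The GC box GGGCGG was found in 45.8% and 50%, against 54.8% of all. The forkhead motif GTAAACA stood in 0 of 24 transport promoters and 1 of 46 motile axoneme promoters, against 0.935% of all, a motif too infrequent to compare at these numbers. The NRF1 motif GCGCATGC (0 of 24 and 2 of 46, against 4.30% of all) and the YY1 motif AAGATGG (2 of 24 and 0 of 46, against 3.46%) were also infrequent.

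Along the promoters, X-box matches of the motile axoneme genes gathered at the peak centre. In the 50 bp bins on either side of the centre, 32.6% and 28.3% of the 46 motile axoneme promoters had a match, where 7.47% and 7.43% of all open promoters did. The corresponding share of the 24 transport promoters was 12.5% on both sides, or 3 promoters in each bin. Transport promoters had their highest share, 20.8% or 5 promoters, from 150 to 100 bp before the centre along the forward strand. The shorter half-site lay otherwise in the transport class: it was most frequent from 0 to 50 bp after the centre, in 5 of 24 promoters (20.8%), where 3.102% of all had it, and none had it from 150 to 100 bp before.

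**Figure D4:**
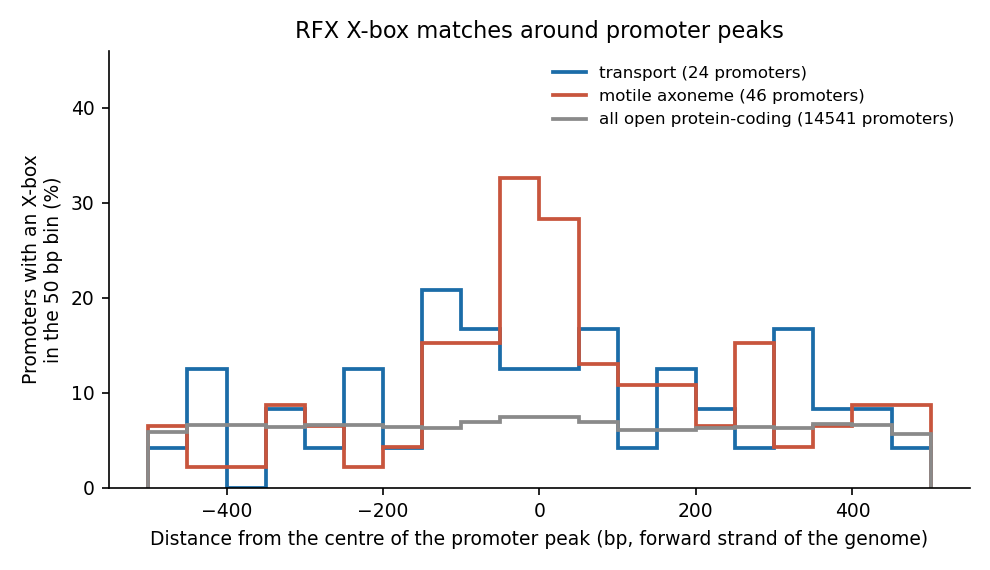
Share of promoters (%) with an RFX X-box in each 50 bp bin, by distance from the centre of the promoter peak (bp), for transport, motile axoneme and all open protein-coding genes. The motile axoneme line reaches 32.6% and 28.3% beside the centre, the transport line is uneven with 24 promoters, and the line of all genes stays near 7%.

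Of the 6 motile axoneme genes without a peak pair, Cfap73, Dnah2, Dnah8 and Dnah17 had an X-box within the 300 bp from 250 bp before to 50 bp after the 5′ end. Dnah3 and Dnah12, the 2 genes with no peak in either replicate, had none in that window. Over this window the X-box is common, at 35.0% of all protein-coding genes, against 14 of 24 transport and 36 of 52 motile axoneme genes.

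Distal regions were those with a peak of both replicates more than 500 bp from every start site, and each was given to the protein-coding gene with the closest start site. A gene's territory is all sequence closer to its start sites than to those of any other protein-coding gene. At least 1 distal region fell to 16 of 24 transport genes and 48 of 52 motile axoneme genes, against 68.7% of all genes. Per gene there were 3.38 regions in transport, 5.35 in motile axoneme and 4.90 in all genes. Territories differ in length, and per 100 kb of territory the 3 values were 3.97, 3.93 and 3.94. By that measure both classes were close to all genes.

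Most of the genes with the most distal regions had long territories. In the motile class Dnah5 had 27, Dnah9 had 22, Dnah8 had 17 and Dnah14 had 15. In the transport class Bbs9 had 16, Ift57 had 14, Bbs10 had 9 and Ift122 had 8. All 17 regions of Dnah8 lay inside its body, and so did 15 of 16 of Bbs9 and 13 of 22 of Dnah9, against 6 of 27 of Dnah5 and 4 of 14 of Ift57. Dnah8 thus had no promoter peak in replicate 2 and 17 regions found in both replicates. Of all distal regions assigned to the classes, 50.6% in transport and 62.9% in motile axoneme genes lay inside the gene itself, against 44.1% of all 107430 regions. Member genes are longer, and per 100 kb of gene body both classes lay below all genes, with 3.19 regions in transport and 3.72 in motile axoneme genes, against 5.13. That density counts every distal region inside the body, whichever gene it was assigned to.

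**Figure D5:**
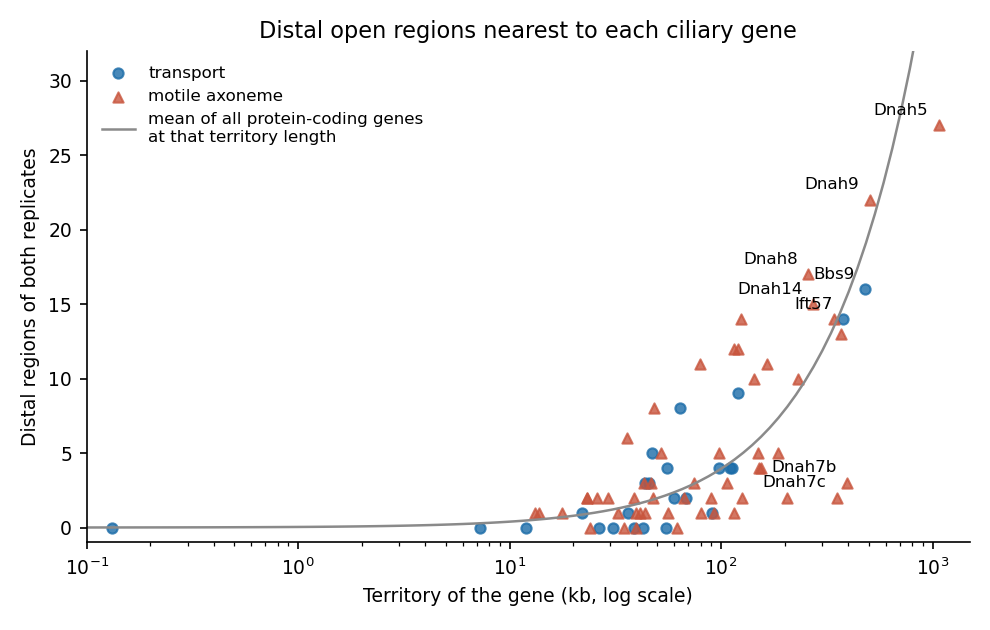
Number of distal regions of both replicates (y axis) against the length of the territory (kb, log scale) for each of 24 transport genes (circles) and 52 motile axoneme genes (triangles). The line gives 3.94 regions per 100 kb, the mean of all protein-coding genes. Members scatter on both sides of it, with Dnah8 above and Dnah5, Dnah7b and Dnah7c below.

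Some genes had none. These were Bbs7, Bbs12, Ift20, Ift46, Ift52, Ift140, Ift172 and Tctn3 in the transport class, and Cfap74, Cfap99, Cfap206 and Rsph4a in the motile class. The median distance from a gene's start sites to the nearest distal region, whichever gene that region was assigned to, was 4.87 kb in transport, 5.27 kb in motile axoneme and 4.83 kb in all genes. Distal regions of the members were ordinary in rank, with a median percentile of 61.0 in transport, 54.9 in motile axoneme and 59.9 in all regions. The X-box was found in 25.9% of transport and 24.1% of motile axoneme distal regions, against 23.1% of all, 3 shares that lie close together.

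The highest-ranked distal regions lay near a few genes. Beside those of Dnah2, the region at chr12:117993596-117993745 inside Dnah11 scored 125 and 106. The region at chr1:171111116-171111285, 2.72 kb from Cfap126, scored 118 and 109, above the promoter of that gene (76 and 51). The region at chr1:172528816-172528965 inside Cfap45 scored 126 and 90. In the transport class the highest was at chr15:78184996-78185145, 11.0 kb from Ift27, with 114 and 89. The nearest start site does not show which gene a region acts on.

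Other genes of the same machinery were counted from lists made with earlier results of these data known. All 25 other genes of the trains, the BBSome and their motors were open, with a median percentile of 97.5. Of 14 other transition zone genes 13 were open, with none at Tmem17. Of 42 other motile cilium genes 41 were open, with a peak in replicate 1 alone at Nme8 and a median percentile of 92.9. Of all protein-coding genes 66.3% were open. CpG-rich promoters made up 84%, 71.4% and 33.3% of the 3 lists in this order. Open genes were 95.9% of all CpG-rich and 36.3% of all CpG-poor genes, so counts of the first 2 lists are close to the background of CpG-rich promoters. The X-box stood in 13 of 25, 5 of 13 and 20 of 41 of their open promoters, against 18.4% of all. The order of ranks was that of the members, with the transport genes higher. The X-box shares were 52% in the other train, BBSome and motor genes, 38.5% in the other transition zone genes and 48.8% in the other motile cilium genes. The motile share lay between the other shares, where in the members it was the higher one. In 300 bp around the same centre the shares were 64%, 69.2% and 75.6%. In that window the members had 62.5% in transport and 73.9% in motile axoneme genes, so the motile share was the highest in both.

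Markers of the tissue and its cells were read the same way. All 11 hindbrain and all 5 neuron markers were open, where 66.3% of all genes were. Their median percentiles were 87.7 for hindbrain and 97.55 for neuron markers, against 96.3 of all open genes. Of 8 forebrain markers 3 were open in both replicates, 6 in replicate 1 and 4 in replicate 2. Of 10 markers of multiciliated and choroid plexus cells 8 were open. Their mean percentiles were 98.3 for Ccno, 97.0 for Foxj1, 88.2 for Myb, 83.0 for Otx2, 77.6 for Aqp1, 75.3 for Mcidas, 68.1 for Gmnc and 50.8 for Trp73. Ttr and Kcne2, defining genes of choroid plexus epithelium, had no promoter peak in either replicate. Of 7 germ cell markers 1 was open, Zpbp. CpG-rich promoters made up 81.8% of the hindbrain, 60% of the neuron and 62.5% of the forebrain markers. In the multiciliated and choroid plexus list they made up 60%, and in the germ cell list 14.3%. How far that bears on the counts was not tested. The part of any 1 cell type in the open motile axoneme promoters was not tested.

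A few genes of these families fall outside the rule on symbols. Tctn2, annotated as a processed transcript in the release used, was open, with scores of 134 and 129. Cfap97d1 scored 128 and 113, and Cfap97d2 scored 123 and 98. All 3 were open in both replicates.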

How the data were processed

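Per the labels, DNase-seq was done on hindbrain tissue in 2 biological replicates, mapped to mm10. Peaks and hotspots were deposited for each library separately. The aligner, the caller and its threshold are not stated in those sources. In the deposited peak tables the value is a score whose meaning is not stated, and it served for ranks alone. Hotspots, as deposited, carry a −log10 q, capped at 100, and hotspots were used for their width, for that value at single genes, and as an alternative to peaks. The tables hold no read counts, so depth is unknown and no precision can be given for a single peak. Replicate 1 had 271150 peaks and replicate 2 had 172002, of which 270757 and 171790, on the assembled nuclear chromosomes, were used.

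Start sites came from GENCODE M21 on the same build. Shared regions are merged peaks with both replicates present (136714, of which 107430 distal). Percentiles are mid-ranks of the best promoter peak in its list, averaged over the replicates. Intervals on shares are exact Clopper-Pearson. Motifs were searched on both strands. The X-box was the consensus of the RFX factors with a spacer between its arms, and its matches can overlap those of the half-site. With 1 group, no test between conditions exists and none was run. The gene families and lists were chosen with earlier results of these data known, while the rule on symbols uses no measured value. Values per replicate are given for the 6 highest-ranked members of each class, those open in 1 replicate or neither, the 4 with the most distal regions in each class and members with the X-box, and other members are named as well. Counting was checked on simulated peaks. Python 3.11.15, numpy 2.4.6, scipy 1.17.1 and pandas 2.3.3 were used. Alternatives were other window sizes, the 5′ end only, stronger peaks, lists of equal length, hotspots, overlap rules, lone promoters, each replicate left out, other motif windows and, added after the data were seen, the removal of near-copies and the X-box in other windows.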

Additional observations from a re-analysis of the deposited data

How the results depend on the processing

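No paired analysis was possible because there is 1 group. The transport class had 24 of 24 genes open under each setting that kept all genes, with 1 replicate left out included. The motile axoneme count ran from 43 to 50 of 52: it was 43 with only the stronger peaks of each list, which dropped Dnah5, Dnah14 and Rsph10b, and leaving out 1 replicate gave 46 to 50. Ranked among promoter peaks alone, the median percentile was 92.2 in transport and 70.8 in motile axoneme genes. The value of all open genes on this scale was not computed, so neither can be set beside a background. With 1 replicate left out the transport median was 98.3 to 99.0. Distal regions per gene from 1 replicate were 4.29 to 8.12 in transport and 6.67 to 11.7 in motile axoneme genes, as lists of 1 replicate hold more regions. The X-box in place of the half-site gave 29 motile axoneme promoters in place of 15. The other 72 values under alternatives stayed within the limits set for them. For counts and shares the limit was a fixed ratio to the main value. For percentiles and distal regions it was the standard deviation between the replicates. These limits were wide in places, and a class with all genes open could not rise further. Distal regions per gene were 1.75 in transport and 2.48 in motile axoneme genes with only the stronger peaks, against 2.64 in all genes. The main values were 3.38 and 5.35, against 4.90 in all genes, and the changes of both classes lay within the limits. The motile axoneme class thus lay above all genes in the main setting and below them with the stronger peaks. The length of the peak lists, which differed by 1.58 times, limits calls at weak promoters, and the score carries no error.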
